A study of Mus musculus with 6 samples.

Results

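The genes described here carry glucose into the cell, break it down to pyruvate and lactate, and feed it into the pentose phosphate pathway. A list of 34 mouse genes was used: 2 glucose transporters, 9 genes of the upper and 8 of the lower part of glycolysis, 4 genes of lactate production and transport, 3 pyruvate dehydrogenase kinases, 2 genes for the enzymes that set fructose 2,6-bisphosphate, and 6 pentose phosphate enzymes. Members are all probe sets of the array that the platform annotation assigns to exactly 1 gene, that gene being on the list. This gave 68 of 45101 probe sets, which cover 31 of the 34 genes (of 18194 genes with such a probe set on the array). Gpi1, Eno1 and G6pdx had no such probe set and are not analysed here.

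Mouse embryonic stem cells were compared between the Wild-type (E14K) line and cells without either glycogen synthase kinase-3 gene (Gsk-3a-/-; Gsk-3b-/-, called DKO). Gsk-3 is a kinase that insulin and PI3K signalling inhibit and that marks beta-catenin for degradation in the Wnt pathway. All cells were grown without feeders in high-glucose medium with serum and leukaemia inhibitory factor, and each genotype was measured on 3 Affymetrix arrays, 1 per RNA sample. No label names a clone for the DKO cells or separate cultures for the replicates, so a p-value covers the spread among these samples alone, which may be technical. The loss of Gsk-3 and any other difference between the lines cannot be told apart.

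Glycolysis turns glucose into pyruvate in the cytosol, and lactate dehydrogenase turns pyruvate into lactate, which leaves the cell through monocarboxylate transporters. Pyruvate dehydrogenase kinases inhibit pyruvate dehydrogenase and so hold pyruvate back from oxidation in the mitochondria. The pentose phosphate pathway branches off after hexokinase and yields NADPH and ribose 5-phosphate for nucleotides. Many steps are served by isozymes from separate genes, with forms typical of muscle, brain or proliferating cells, and cultured mouse embryonic stem cells are known for a high rate of glycolysis.

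Few transcripts of the pathway differed detectably between the genotypes. Protein amounts and flux were not measured. Of 29 genes that could be tested, 1 rose in DKO, Pgam2, the muscle form of phosphoglycerate mutase, and 28 did not pass. Over all 10496 tested genes 4.13% passed, 1.64% as higher in DKO, so 1 of 29 is near the background (by probe set, 1 of 56 against 3.24%). Pgam2 read 4.65-fold higher with wild-type signals under the filter on dim probe sets set to it, as these signals lay at or under that filter. It entered the test through its DKO arrays, and with no such filter no member passed (adjusted p = 0.231 for Pgam2). Aldoc, the brain form of aldolase, read 1.45 log2 units higher in DKO and passed only when arrays of the same replicate number were paired. Paired in this way, 2 of 29 genes passed, against 10.7% of all genes. The median log2 difference of the 29 genes was 0.08 (-0.0025 over all genes), and the median of the absolute differences was 0.16 (0.25 over all genes). An absolute difference under 0.5 was found for 23 of the 29 (79.3%, against 75.8% of all genes), and 2 of 29 (6.90%) reached 1, against 8.22%.

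**Figure D1:**
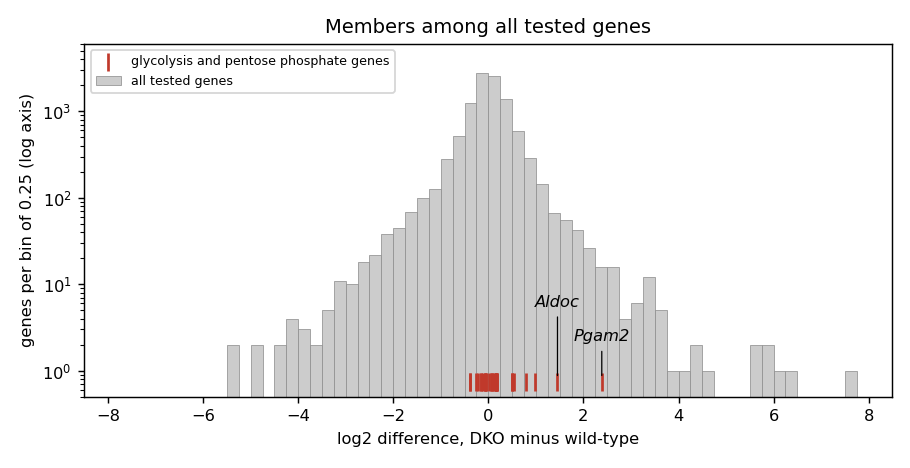
Histogram of the log2 difference between DKO and wild-type means over the 10496 tested genes (grey bars, number of genes per bin on a log axis), with 1 red tick for each of the 29 glycolysis and pentose phosphate genes below. The ticks lie around 0 in the tallest bins, and Aldoc (1.45) and Pgam2 (2.39) lie farthest to the right.

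Values are log2 of the deposited intensity. Array controls were left out, as were probe sets that reached a log2 value of 4 (intensity 16) on fewer than 3 of the 6 arrays. Limma was run on the remaining 20841 probe sets, with Benjamini-Hochberg adjusted p-values and a threshold of 0.05, and each gene is given by the brightest of its tested probe sets, judged over all arrays. Among the 68 member probe sets 56 were tested, 9 were dim and 3 were array controls. Pdk2, one of the pyruvate dehydrogenase kinases, was dim, with no array above a log2 value of 3.58, and Gapdh was covered only by the controls.

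Arrays had median intensities of 10 to 11. Spike-in controls (9 probe sets) averaged log2 values of 9.50 and 9.91 on the replicate 3 arrays and 1.73 to 1.85 on the other 4, so both replicate 3 arrays stood apart and entered an alternative as a block. The targeted gene Gsk3a read 7.18, 7.08 and 6.04 on the DKO arrays and 8.65, 7.89 and 7.90 on the wild-type arrays. The DKO arrays were all the lower ones. The difference, -1.38 (SE 0.36), missed the threshold in limma (adjusted p = 0.0942) and passed with the replicate number as a block (adjusted p = 0.00646). The brightest Gsk3b probe set read 10.40 ± 0.23 on DKO and 10.61 ± 0.08 on wild-type arrays (SD, n = 3). Where these probe sets lie relative to the deleted parts was not known, so they may check nothing. Of 10 embryonic stem cell markers all were tested and none passed in limma (0 at an unadjusted p under 0.05, 0 with the replicate block), with a median difference of -0.06. Of 10 fibroblast markers 4 were tested and none passed in limma (1 at an unadjusted p under 0.05, and Col1a1 lower with the replicate block). Over all genes 14.7% stood at an unadjusted p under 0.05, and 5.63% passed as lower with the block.

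The results turn on the phosphoglycerate mutase genes and on Aldoc, so the 250 bases before their annotated start sites are shown. They come from RefSeq (build GRCm38.p6). The table held a promoter for 33 of the 34 genes. Capitals mark matches on either strand to 4 motifs: the TCF/LEF motif CTTTGAT, bound by the partners of beta-catenin, the hypoxia factor core ACGTG, the E-box CACGTG of Myc-type factors, which contains that core, and the MEF2 motif CTANNNNTA of muscle genes.
Pgam2, chr11:5803797-5804046, minus strand: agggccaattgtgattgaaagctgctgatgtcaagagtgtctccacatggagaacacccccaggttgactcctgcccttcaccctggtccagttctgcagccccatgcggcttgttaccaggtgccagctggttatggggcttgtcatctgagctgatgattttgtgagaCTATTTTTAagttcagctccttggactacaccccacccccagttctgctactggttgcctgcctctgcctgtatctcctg
Pgam1, chr19:41911621-41911870, plus strand: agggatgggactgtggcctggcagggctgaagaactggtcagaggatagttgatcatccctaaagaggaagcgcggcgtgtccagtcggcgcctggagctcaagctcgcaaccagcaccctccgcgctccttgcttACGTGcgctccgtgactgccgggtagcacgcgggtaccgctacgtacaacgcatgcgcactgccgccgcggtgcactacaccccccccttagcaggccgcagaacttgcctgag
Aldoc, chr11:78322823-78323072, plus strand: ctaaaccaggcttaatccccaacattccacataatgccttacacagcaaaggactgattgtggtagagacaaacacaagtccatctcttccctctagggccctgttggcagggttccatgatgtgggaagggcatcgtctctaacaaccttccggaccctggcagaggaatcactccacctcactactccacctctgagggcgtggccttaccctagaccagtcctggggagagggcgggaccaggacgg
The Pgam2 window held 1 match, CTATTTTTA for MEF2, starting 80 bases before the start site, and the Pgam1 window held 1 match, the core ACGTG, starting 114 bases before it. The Aldoc window shown held none, as did the window of its other annotated start. A match is only a match of letters. Over the 33 genes with a promoter, ACGTG was found in 18 of 50 windows (36.0%, against 16.6% of all 32851 windows), CACGTG in 6 (12.0%, against 6.02%), CTANNNNTA in 4 (8.0%, against 19.0%) and CTTTGAT in 1 (2.00%, against 3.21%), that of Taldo1. Several windows belong to 1 gene and can overlap.

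Transcripts of the glucose transporters did not differ detectably. Slc2a1, the ubiquitous transporter GLUT1, read 11.83, 12.35 and 12.16 in DKO and 12.31, 12.51 and 12.31 in wild-type cells, with overlapping arrays. The difference was -0.26 (95% interval -0.80 to 0.28, adjusted p = 0.782). Slc2a3, the high-affinity transporter GLUT3, differed by 0.02 on its brightest probe set (95% interval -0.51 to 0.55). Its 2 brightest probe sets differed by at most 0.02, while the dimmer 2 differed by 0.71 and 0.38 and did not pass either.

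In the upper part of glycolysis 8 of 9 genes were tested and none passed in limma (8 genes with adjusted p between 0.191 and 0.970). Hexokinase traps glucose as glucose 6-phosphate. Hk2, the form typical of proliferating cells, differed by 0.08 (95% interval -0.63 to 0.79). Hk1, the general form, read 6.15, 6.58 and 5.13 in DKO and 6.21, 4.86 and 4.39 in wild-type cells, a difference of 0.80 with an interval of -0.36 to 1.96 that leaves a wide range.

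Phosphofructokinase commits sugar to glycolysis and has liver (Pfkl), muscle (Pfkm) and platelet (Pfkp) forms. Pfkm read 6.81, 6.30 and 6.36 in DKO and 6.15, 6.0 and 5.73 in wild-type cells. All DKO arrays lay above all wild-type arrays, as in 8.49% of all genes, and the difference of 0.53 (SE 0.25) missed the threshold (adjusted p = 0.432). Pfkp read 10.62, 10.54 and 9.87 against 10.18, 9.82 and 9.50, a difference of 0.50 (adjusted p = 0.572). DKO was above wild-type in all 3 pairs of like number. The 3 pairs agreed in sign in 11 of the 29 tested members, and the share over all genes was not computed. Pfkl read 8.88, 9.08 and 9.73 in DKO and 9.26, 8.89 and 9.75 in wild-type cells, a difference of -0.07 (95% interval -0.79 to 0.65).

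Aldolase splits fructose 1,6-bisphosphate. Aldoc (probe set 1451461_a_at) read 10.64, 9.21 and 9.13 in DKO and 9.03, 7.89 and 7.71 in wild-type cells. The groups did not overlap, although the lowest DKO array and the highest wild-type array were nearly level, and replicate 1 was the highest array of each genotype. The difference was 1.45 (SE 0.48, adjusted p = 0.191), or 2.74-fold. By replicate number it was 1.61, 1.33 and 1.43, and with that number as a block Aldoc passed (adjusted p = 0.00186). Under that block 10.7% of all genes passed, against 2 of these 29, Aldoc and Pgam2 (3 of 56 probe sets, against 9.57% of all). Aldoa, the form found in most tissues, read 12.55, 12.25 and 11.95 in DKO and 12.18, 12.11 and 12.14 in wild-type cells, with a difference of 0.11 (adjusted p = 0.930), and its 5 tested probe sets differed by -0.04 to 0.14. Tpi1, which interconverts the aldolase products, differed by -0.11.

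**Figure D2:**
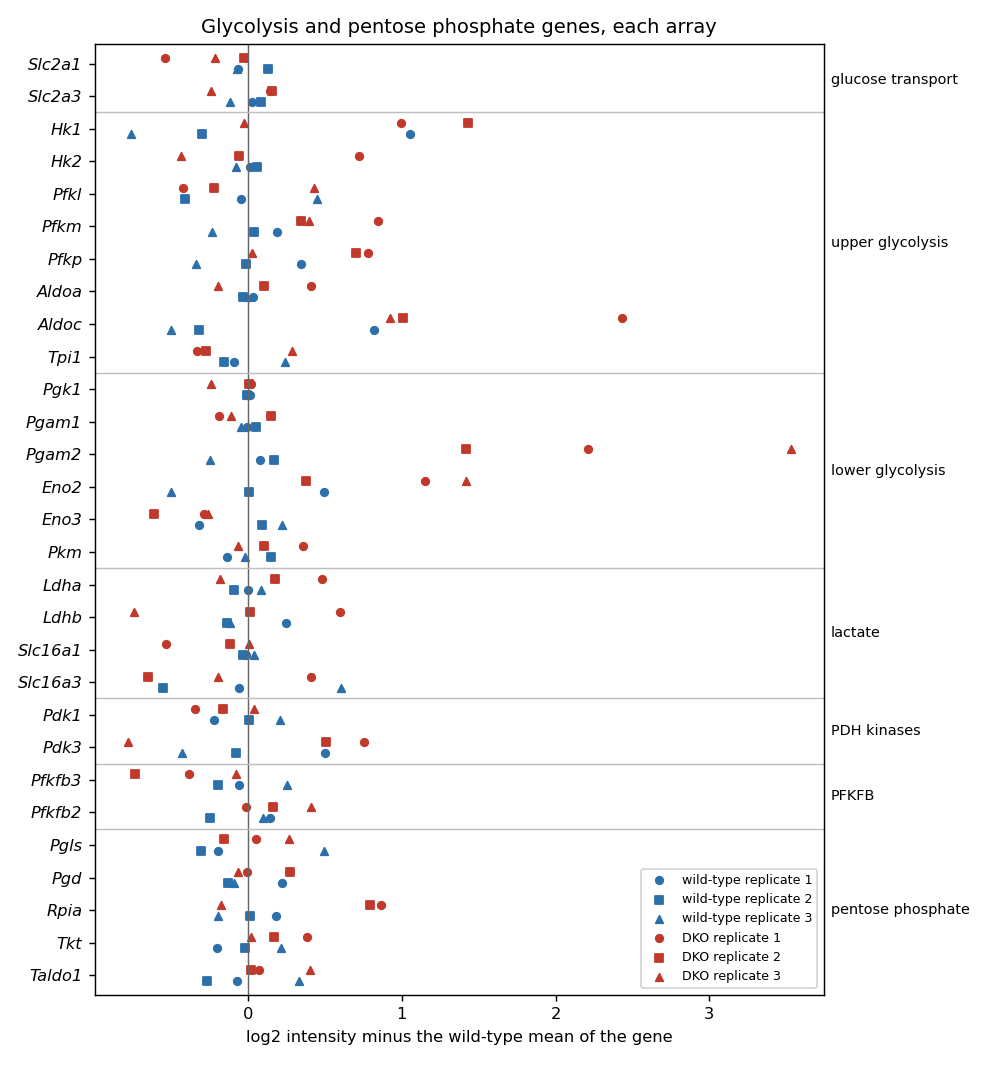
Log2 intensity on each array minus the wild-type mean of the same gene, for the brightest tested probe set of 29 genes (wild-type blue, DKO red, 1 symbol per replicate number), ordered along the pathway. Red and blue points mix for most genes, while Pfkm, Aldoc and Pgam2 have all DKO points to the right of all wild-type points.

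In the lower part of glycolysis, 6 of 8 genes were tested and Pgam2 passed. Phosphoglycerate mutase moves the phosphate of 3-phosphoglycerate to the second carbon. Pgam2 (probe set 1418373_at, the only one of the gene) had intensities of 66, 38 and 164 in DKO and of 15, 16 and 12 in wild-type cells. Its log2 values were 6.04, 5.25 and 7.36 against 3.91, 4.0 and 3.58. Every DKO array was above every wild-type array, and DKO replicate 3 was the highest. The wild-type arrays lay at or under the filter, so the gene entered the test through its DKO arrays. The difference was 2.39 (SE 0.47, adjusted p = 0.0285). With wild-type values under the filter set to it, the difference was 2.22, or 4.65-fold. This fold is an estimate from the means and not a lower bound.

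The size and the call of the Pgam2 difference leaned on single arrays. Without DKO replicate 1, wild-type replicate 2 or wild-type replicate 3 it did not pass (adjusted p = 0.151, 0.0867 and 0.0542). By replicate number the difference was 2.14, 1.25 and 3.77. Within replicates 1 and 2 alone it was 1.69 (adjusted p = 0.0565), and with replicate 3 as a block adjusted p = 0.0131. With no filter on dim probe sets, or with 16 added to each intensity, adjusted p was 0.231 and 0.0745. Pgam1, the form of most other tissues, read 11.99, 12.33 and 12.07 in DKO and 12.17, 12.23 and 12.13 in wild-type cells, with overlapping arrays and a difference of -0.05 (95% interval -0.56 to 0.46, adjusted p = 0.971).

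The enolase isozymes named for muscle and for neurons did not pass. Eno3, the muscle enolase, read 5.64, 5.32 and 5.67 in DKO and 5.61, 6.02 and 6.15 in wild-type cells, a difference of -0.38 (adjusted p = 0.637). Eno2, the neuronal enolase, read 7.82, 7.04 and 8.09 against 7.16, 6.67 and 6.17, higher in DKO in each same-numbered pair but with overlapping arrays. Its difference was 0.98 (SE 0.35, adjusted p = 0.247, or 0.0705 with the replicate block). Of 6 tested neural marker genes, 2 fell (Pax6 and Neurod1) and 0 rose, against 2.5% and 1.64% of all genes. With the replicate block 5 fell, against 5.63% of all genes. The summed intensity of the 6 was 130 to 372 in DKO and 449 to 681 in wild-type cells. Of 8 tested markers of extraembryonic endoderm none passed in limma, and 3 stood at an unadjusted p under 0.05, against 14.7% of all genes. Hnf4a was higher with the replicate block, as were 5.07% of all genes. The median difference of the 8 was 1.00. Their summed intensity was 2889 to 4872 in DKO and 926 to 3593 in wild-type cells, with the lowest sum on wild-type replicate 3. The markers Afp and Ttr were dim and not tested. The part of these cell types in the values of Aldoc, Eno2 and Pgam2 was not tested, and a change in the number of such cells cannot be told apart from a change per cell.

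The remaining transcripts of the lower part differed by little. Pgk1, the first enzyme to make ATP, differed by -0.07 (95% interval -0.57 to 0.43), and its 3 probe sets by -0.07 to 0.07. Pkm, pyruvate kinase, read 12.10, 11.84 and 11.67 in DKO and 11.60, 11.88 and 11.72 in wild-type cells, a difference of 0.13 (95% interval -0.40 to 0.66). Its 2 splice forms, M1 and M2, were not separated by its single probe set. Gapdh, which oxidises glyceraldehyde 3-phosphate, was read from 3 array control probe sets. Its 3' control read 12.72, 12.56 and 11.90 in DKO and 12.28, 12.53 and 12.04 in wild-type cells. In limma with these controls added to the tested probe sets, the 3', middle and 5' controls differed by 0.11, 0.07 and -0.13 (adjusted p = 0.941, 0.974 and 0.908). The 3' control minus the 5' control, a sign of RNA length, was 0.43 ± 0.25 on DKO and 0.18 ± 0.20 on wild-type arrays (SD, n = 3, exact two-sided permutation p = 0.30).

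**Figure D3:**
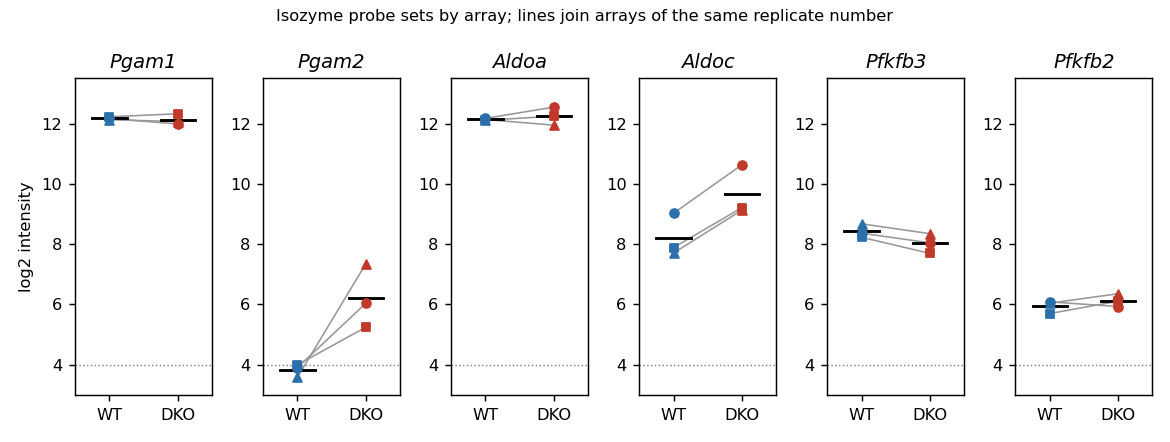
Log2 intensity of 3 isozyme pairs on each array, wild-type (blue) and DKO (red), with grey lines between arrays of the same replicate number, black bars at the means and a dotted line at the filter of 4. Pgam2 and Aldoc slope upward in all 3 pairs of arrays, while Pgam1 and Aldoa stay near 12.

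Transcripts for lactate production and export did not differ detectably. Ldha, the lactate dehydrogenase subunit typical of glycolytic cells, read 12.58, 12.28 and 11.92 in DKO and 12.10, 12.01 and 12.19 in wild-type cells, a difference of 0.16 (95% interval -0.41 to 0.73). Ldhb, the heart subunit, differed by -0.04 (95% interval -0.83 to 0.74), and its 4 probe sets by -0.04 to 0.27. DKO replicate 1 was the highest and DKO replicate 3 the lowest of the 6 arrays for Ldhb. The transporters Slc16a1 (MCT1) and Slc16a3 (MCT4) differed by -0.21 and -0.15 (adjusted p = 0.832 and 0.940).

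Regulators of flux gave 1 value that depended on the pairing. Pdk1, a pyruvate dehydrogenase kinase, differed by -0.15 on its brightest probe set (adjusted p = 0.887), but its 4 probe sets ran from -0.80 to 0.17. The lowest of them, 1434974_at, read 6.17, 6.17 and 7.21 in DKO and 6.81, 7.24 and 7.89 in wild-type cells. It was lower in DKO in each same-numbered pair and passed when the replicate number was a block (adjusted p = 0.0430) but not without it (0.433). Probe set 1435836_at instead had all DKO arrays above all wild-type arrays, with a difference of only 0.17. Such a separation was found in 5 of the 56 tested member probe sets and in 7.57% of all tested probe sets. Pdk3, another kinase of the family, differed by 0.16. Pfkfb3 and Pfkfb2, which make fructose 2,6-bisphosphate, the activator of phosphofructokinase, differed by -0.39 and 0.19 (adjusted p = 0.646 and 0.860). Pfkfb3 read 8.04, 7.69 and 8.35 in DKO and 8.37, 8.23 and 8.68 in wild-type cells, lower in DKO in all 3 pairs.

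All 5 tested pentose phosphate genes had differences above 0, as had 18 of all 29 tested members. None of the 5 passed (differences of 0.06 to 0.49, adjusted p between 0.629 and 0.973). Pgls, the lactonase, differed by 0.06, and Pgd, which makes the second NADPH, by 0.07. Rpia, which makes ribose 5-phosphate, read 9.51, 9.44 and 8.47 in DKO and 8.83, 8.66 and 8.45 in wild-type cells, a difference of 0.49 (95% interval -0.22 to 1.21). Tkt and Taldo1, transketolase and transaldolase of the non-oxidative branch, differed by 0.19 and 0.17. The other 2 probe sets of Tkt both differed by 0.58 (adjusted p = 0.398 and 0.388). On one of them, 1451015_at, the DKO arrays (9.88, 9.30 and 9.41) lay above the wild-type arrays (8.79, 8.85 and 9.22), as in 7.57% of all tested probe sets.

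**Figure D4:**
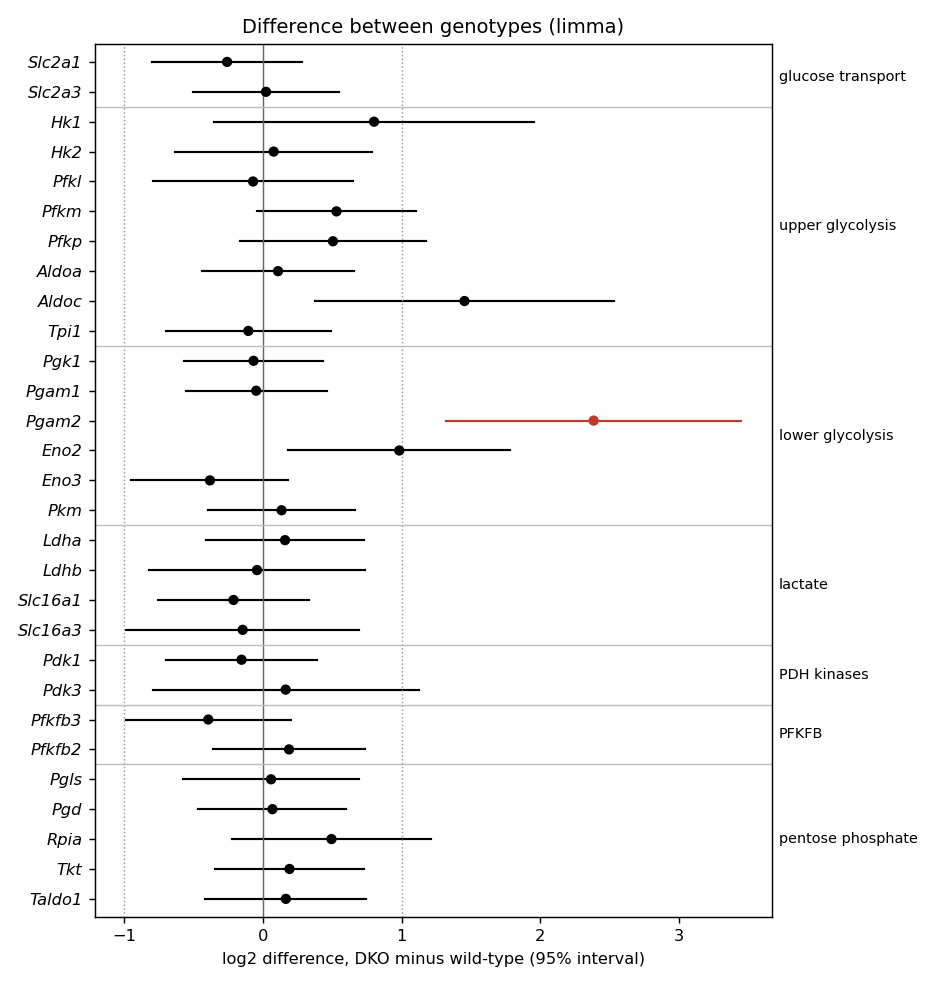
Log2 difference between DKO and wild-type means with its 95% interval from limma for 29 genes, ordered along the pathway, red where the adjusted p is under 0.05. Dotted lines mark 2-fold changes (log2 differences of -1 and 1). Pgam2 alone is red, and 21 of the 29 intervals lie wholly between the dotted lines.

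The intervals show how precisely single genes were measured in the model without the replicate block, without adjustment for the number of genes tested. They ignore the pairing by replicate number, so the spread between replicate numbers is part of them. For 21 of the 29 genes the 95% interval lay within 1 log2 unit on both sides of 0. The distance from the estimate to the end of its interval had a median of 0.58 and ran from 0.50 to 1.16. Aldoc and Eno2 differed by more than that distance and still missed the adjusted threshold, so a call needed a larger difference than the interval alone shows. At an unadjusted p under 0.05 stood 3 of 29 genes (Pgam2, Aldoc and Eno2), 10.3% against 14.7% of all genes. In 3 of 29 genes (Pfkm, Aldoc and Pgam2) the genotypes did not overlap, all with DKO above, against 18.9% of all genes in either direction.

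Isozyme use was compared as the log2 ratio of 2 isozymes within each array, for 10 of the 13 pairs on the list for which both genes were tested. A change of the ratio shows only that the genes changed unequally. With 3 arrays against 3, the exact two-sided permutation test cannot go below 0.1, and after adjustment over the 10 pairs the lowest value was 0.333, so no pair could pass. Genotypes did not overlap in 3 pairs. The ratio of Pgam2 to Pgam1 was higher in DKO by 2.27 with wild-type Pgam2 values under the filter set to it. The difference was 2.44 with the values as read, and 1.66 with 16 added to each intensity. The ratio of Aldoc to Aldoa was higher by 1.35. The ratio of Pfkfb2 to Pfkfb3 was -2.11, -1.58 and -1.99 in DKO and -2.28, -2.53 and -2.63 in wild-type cells, a difference of 0.58. Each of these had an exact p of 0.1. The ratios of Ldhb to Ldha (-0.20, exact p = 0.50), Slc2a3 to Slc2a1 (0.28, exact p = 0.20) and Hk2 to Hk1 (-0.72, exact p = 0.40) overlapped between genotypes.

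**Figure D5:**
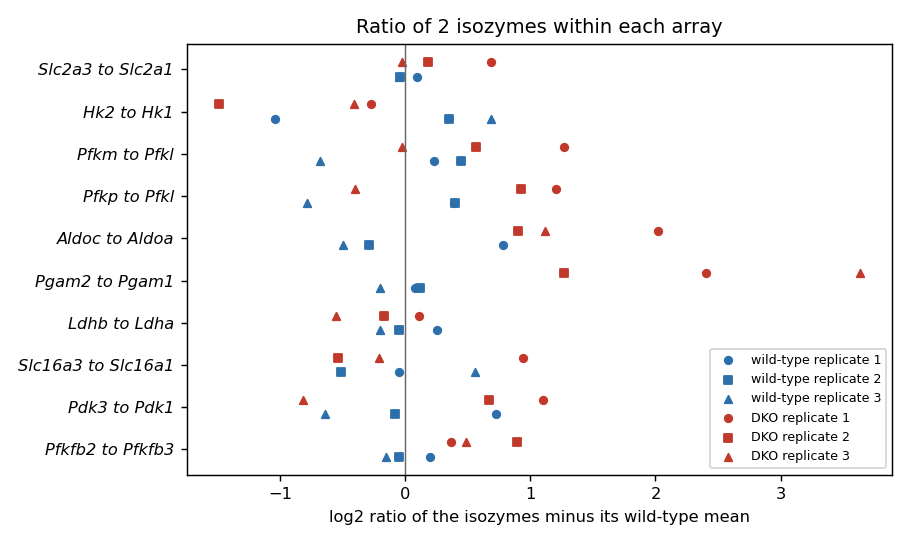
Log2 ratio of 2 isozymes within each array minus its wild-type mean, for 10 pairs (wild-type blue, DKO red, 1 symbol per replicate number). All red points lie to the right of all blue points for Aldoc to Aldoa, Pgam2 to Pgam1 and Pfkfb2 to Pfkfb3, and they mix in the other pairs.

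Few genes around the pathway passed without the replicate block. Of 51 other glycolysis and pentose phosphate genes with a probe set, such as tissue-specific isozymes and gluconeogenic enzymes, 22 were tested, 1 rose, 1 fell and 20 did not pass, with a median difference of -0.02. Over all genes 1.64% passed as higher and 2.5% as lower. Emb (embigin), a membrane partner of monocarboxylate transporters, read 7.89, 6.79 and 7.52 in DKO and 9.43, 9.27 and 9.24 in wild-type cells. It fell by 1.91 on the log2 scale (SE 0.31, adjusted p = 0.0112), and its other tested probe set fell by 1.71. Emb passed in 15 of 16 alternatives, the exception being the fit with no filter (adjusted p = 0.0985). Bsg (basigin), the other such partner, differed by 0.54 (adjusted p = 0.586). Pdp2, a phosphatase that reactivates pyruvate dehydrogenase, read 8.70, 8.67 and 8.63 in DKO and 7.61, 6.83 and 6.85 in wild-type cells. It rose by 1.57 (SE 0.27, adjusted p = 0.0166), but missed the threshold when DKO replicate 1, DKO replicate 2 or wild-type replicate 2 was left out (adjusted p = 0.0912, 0.0725 and 0.0867). Pdp2 also missed it with no filter (0.0898) and within replicates 1 and 2 (0.0932). With the replicate block 4 of these 22 genes rose, Pdp2 with Pck2, Pgm2 and Ldhc, which are named after their values were seen, and 1 fell. Under that block 5.07% of all genes passed as higher and 5.63% as lower.

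Genes of pyruvate entry and the citric acid cycle did not pass in any of 30 tested cases by limma (median difference 0.06). At an unadjusted p under 0.05 stood 1 of them, against 14.7% of all genes. With the replicate block 1 of them was called, Me1 (malic enzyme), with a difference of 1.31 (adjusted p = 0.0375). Of 19 tested genes of the hypoxia response 2 fell, 0 rose and 17 did not pass, with a median difference of -0.21. Over all genes 2.5% passed as lower and 1.64% as higher. With the replicate block 3 fell and 1 rose, Egln3 and Mxi1 being added, against 5.63% and 5.07% of all genes. Adm (adrenomedullin), a vasodilator peptide, read 5.46, 4.0 and 4.52 in DKO and 7.0, 6.51 and 6.98 in wild-type cells, and fell by 2.17 (SE 0.37, adjusted p = 0.0153). It missed the threshold without DKO replicate 2 (0.0585), with no filter (0.155) and within replicates 1 and 2 (0.0934). Epas1, the hypoxia-inducible factor HIF-2 alpha, read 8.51, 8.11 and 9.92 in DKO and 10.66, 10.87 and 10.93 in wild-type cells. It fell by 1.97 (SE 0.43, adjusted p = 0.0435) but passed in only 1 of 6 fits that left out an array, the one without DKO replicate 3 (adjusted p = 0.0030 there, 0.0665 to 0.231 in the others). It also missed the threshold with quantile normalization (0.0545) and with no filter (0.263), and passed in 9 of 16 alternatives. Of 13 tested regulators of glycolysis, among them Myc, Mycn and Txnip, none passed in limma on its brightest probe set (1 at an unadjusted p under 0.05). The replicate block called Mycn lower (difference -0.96, adjusted p = 0.0251, against 0.116 without the block), and a dimmer probe set of Mycn passed without it (difference -1.48, adjusted p = 0.0366).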

How the data were processed

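The authors deposited 1 intensity per probe set and array, as whole numbers with no scale given. These were treated as linear here, and log2 was taken without a pseudocount. Names of tools in the submitters' processing notes are GCRMA 2.14.1, GCOS, limma 2.16.5 and R 2.8.0, without roles, and no build is stated there. Rounding makes low values coarse, there are no detection flags, and 6 arrays limit the precision.

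Gene names came from the platform annotation, updated by gene identifier from RefSeq (34958 probe sets with 1 gene, 932 with several, 9211 unnamed). The fit used limma 3.58.1 (lmFit, eBayes) in R 4.3.3 and was tested on simulated data. Sample titles carry the replicate numbers 1, 2 and 3. After subtraction of genotype means, arrays of like number correlated at 0.427, 0.354 and 0.595, each over 0.1, so by the rule used the numbers pair the samples, although no label explains them. The model has no block. Counts and calls come from it, and the blocked result is given beside them where it changes the call of a member. At most 1.79% of tested values were identical between 2 arrays.

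Members, lists, tests and alternatives were chosen with earlier results of these data known. Every member is named. Values by array are given for members that passed, with or without the block, or whose arrays did not overlap, for their partner isozymes and, added after the values were seen, for some others. Other pathway genes are named where they passed, and Bsg, Col1a1, Hnf4a and those called only with the block were added afterwards. Alternatives changed the filter, scaling, pseudocount, block, variance trend, probe set rule and arrays used.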

Additional observations from a re-analysis of the deposited data

How the results depend on the processing

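Over all 16 alternatives, Pgam2 stayed higher in DKO (log2 difference 1.61 to 2.87) and passed in 10 (adjusted p 0.00449 to 0.231), and Aldoc stayed higher (0.97 to 1.86) and passed in 1 (adjusted p 0.00186 to 0.536). None of the other 27 tested genes passed in any alternative on its brightest probe set or on the mean of its probe sets, while the dimmer Pdk1 probe set 1434974_at passed with the replicate block. The counts of members called were 1 probe set and 1 gene as reported, 0 and 0 with no filter, with log2 of the value plus 16 and within replicates 1 and 2, and 3 and 2 with the replicate block. Fits without 1 array gave 0 to 1 of each. Over all probe sets, 675 passed as reported, 1995 with the replicate block, 1117 with replicate 3 as a block, 440 within replicates 1 and 2 and 290 to 604 without 1 array. Fewer samples lower these counts by construction, and otherwise the cause was not tested. The median difference of members was 0.02 to 0.15 without 1 array. No scaling moved the median over all probe sets by over 0.1.

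Some differences near 0 changed sign, and none of these passed. Within replicates 1 and 2 the values were 0.014 for Pgk1, 0.25 for Ldhb and 0.18 for Slc16a3. With the mean of all tested probe sets they were 0.0096 for Pgk1, 0.072 for Ldhb and -0.0074 for the ratio of Slc16a3 to Slc16a1. Without 1 array the ranges were -0.042 to 0.26 (Aldoa), -0.25 to 0.33 (Hk2), -0.0022 to 0.33 (Ldha), -0.36 to 0.30 (Ldhb), -0.13 to 0.63 (Pdk3), -0.32 to 0.15 (Pfkl), -0.15 to 0.021 (Pgam1), -0.036 to 0.18 (Pgd), -0.11 to 0.017 (Pgk1), -0.092 to 0.30 (Pgls), -0.42 to 0.16 (Slc16a3), -0.047 to 0.15 (Slc2a3) and -0.30 to 0.014 (Tpi1). The ratio of Pdk3 to Pdk1 ran from -0.072 to 0.88 and that of Slc16a3 to Slc16a1 from -0.37 to 0.37.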
